A study of Mus musculus with 16 samples.

Results

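The granins and the enzymes and helper proteins that process prohormones were followed as 10 genes chosen by symbol: the granin family genes Chga, Chgb, Scg2, Scg3, Scg5 and Vgf, the convertases Pcsk1 and Pcsk2, the convertase inhibitor gene Pcsk1n, and the carboxypeptidase gene Cpe. All 10 are among the 17655 genes of every deposited table, and all 10 passed the filter on low values, which 12357 genes passed. The cells are preSC, a mouse model of the precancerous stage of small cell lung cancer, described as Chga-positive neuroendocrine cells of the lung. Both groups share the genotype Rb1 null, Trp53 null and Rbl2 heterozygous null, and both were given doxycycline at 1 µg/mL for 48 hours before RNA was extracted. The groups differ in the lentivirus they received: an empty control ("empty", 8 samples) or one that carries Wnt5a ("Wnt5a", 8 samples). The labels do not say whether the samples came from separate cultures, whether the lines are clones, or what doxycycline acts on. The p-values below therefore cannot be taken to measure a spread between separate cultures or lines. In limma they rest on the spread between blocks of these samples, averaged as described below, and on a variance trend across all genes tested.

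Neuroendocrine cells store peptide hormones in dense core granules. Granins are acidic secretory proteins that aggregate in the trans-Golgi network, help to load these granules and are themselves precursors of bioactive peptides. Prohormones are cut at pairs of basic residues by the proprotein convertases PC1/3 (Pcsk1) and PC2 (Pcsk2). Carboxypeptidase E (Cpe) then removes the basic residues left at the new end, and many peptides are finally amidated by the enzyme that Pam encodes. The helper proteins are partners of a convertase: 7B2 (Scg5) assists the maturation of PC2 and inhibits it, and proSAAS (Pcsk1n) inhibits PC1/3. In the lung these genes mark neuroendocrine cells and the tumours that arise from them.

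Recovered read totals were between 7526676 and 8859862 per sample. Within a group, the counts of samples 1 to 4 differed by little more than sampling noise, as did those of samples 5 to 8 (index of dispersion 0.987 to 1.05 over 24 pairs, where counting noise alone gives about 1). A chi-square test found an excess at an unadjusted p under 0.05 in 14 of these pairs, whereas the 32 pairs across blocks had an index of 5.23 to 5.44. Each block was therefore averaged and counted as 1 sample, called library A (samples 1 to 4) and library B (samples 5 to 8), so that n = 2 per group throughout. What separates A from B is not stated in the labels. The targeted gene followed its label: the normalised read count of Wnt5a was 122 ± 31.4 (SD, n = 2) in empty and 1279 ± 325 (SD, n = 2) in Wnt5a libraries. Reads of Rb1, described as null, stood at 3223 ± 8.73 and 3193 ± 34.0 (SD, n = 2), and gene-level values do not show which exons they cover. Trp53, also described as null, stood at 67.4 ± 3.71 and 90.9 ± 9.04 (SD, n = 2).

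Several granin genes are known targets of factors that bind the cyclic AMP response element, so their promoters are shown first, as context for genes that are expressed together. RefSeq windows (GRCm38.p6, 250 bases before to 50 after the transcription start) were matched by symbol for 8 of the 10 genes; Vgf and Cpe had no entry. The full element TGACGTCA, which reads the same on both strands, was present in the windows of Scg2, Chgb and Pcsk1. It was thus in 3 of 8 windows, against 3.85% of 9700 tested genes with a window. Its core TGACG, searched on both strands and contained in the full element, was present in 7 of 8 windows, against 36.5% of those tested genes. Pcsk1n alone had no match. The first base of the full element lies at -72 in Chgb, -68 in Scg2 and -78 in Pcsk1, and the core of Chga lies at -44. The core lies at -30 in Scg3 and at -175, 20 and 41 in Scg5. In Pcsk2 the core is on the opposite strand, as is the match at 41 in Scg5. Stretches are printed for Scg2, Chgb, Pcsk1, Chga and Pcsk2, and those of Scg3 and Scg5 are left out. The printed stretches of 68 bases follow, 5′ to 3′ in the direction of transcription, with the full element or core in capitals. They are chr1:79440057-79440124 (minus strand) for Scg2, chr2:132781540-132781607 (plus) for Chgb, chr13:75089749-75089816 (plus) for Pcsk1, chr12:102554867-102554934 (plus) for Chga and chr2:143546069-143546136 (plus) for Pcsk2.
Scg2: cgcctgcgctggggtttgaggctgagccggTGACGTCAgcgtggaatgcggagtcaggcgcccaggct
Chgb: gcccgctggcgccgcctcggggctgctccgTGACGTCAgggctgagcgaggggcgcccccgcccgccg
Pcsk1: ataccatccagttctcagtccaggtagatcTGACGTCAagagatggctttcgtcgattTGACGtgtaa
Chga: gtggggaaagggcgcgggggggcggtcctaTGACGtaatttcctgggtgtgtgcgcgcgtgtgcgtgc
Pcsk2: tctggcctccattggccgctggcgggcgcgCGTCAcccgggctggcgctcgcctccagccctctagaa

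**Figure D1:**
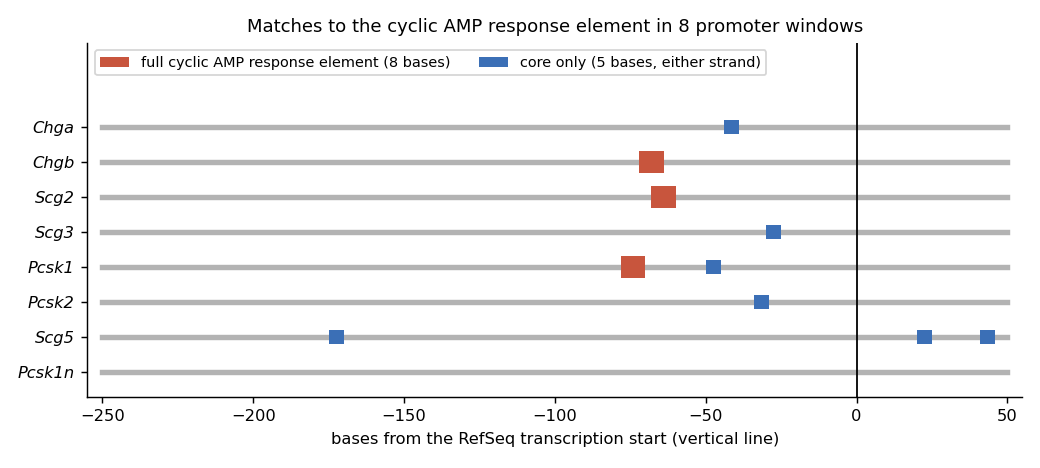
Positions of matches to the cyclic AMP response element in the RefSeq promoter windows of 8 genes, in bases from the transcription start. Red blocks are the full element, found in Chgb, Scg2 and Pcsk1; blue blocks are matches to the core alone, of which Scg5 holds 3, and Pcsk1n has none.

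The Wnt5a libraries were compared with the empty libraries for these genes, and the cause of any difference was not tested. Scg2, Pcsk1n and Pcsk2 fell in the Wnt5a libraries, by 39.9%, 31.5% and 27.5% of the empty mean, and 0 of the 10 genes rose. The other 7 genes did not pass the test. Of all 12357 genes tested, 2.06% were called (limma adjusted p under 0.05), 0.672% as lower and 1.38% as higher. The fitted difference was below 0 for 10 of the 10 genes, with a median of -0.21 on the log2 scale, while over all genes 49.3% were below 0 and the median was 0.0026. Leaving out Wnt5a library B moved this median to -0.0991 and left 1 gene called, while leaving out Wnt5a library A moved it to -0.32 and also left 1. It was -0.12 with 3 called without empty library A, and -0.30 with 4 called without empty library B. Between the A libraries 9 of 10 genes were lower in Wnt5a (median -0.20), and between the B libraries 10 of 10 (median -0.27). Within a group these genes also moved together. In library B against library A, 9 of 10 were lower in empty cells (median -0.16) and 10 of 10 in Wnt5a cells (median -0.18). The 10 genes are thus not separate observations. In 3 of the 10 genes all 8 Wnt5a samples lay below all 8 empty samples, as they did in 5.95% of genes tested, and in 0 of 10 did they lie above, as in 6.45% of genes tested. In bulk RNA, fewer cells with a transcript and less of it per cell cannot be told apart.

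**Figure D2:**
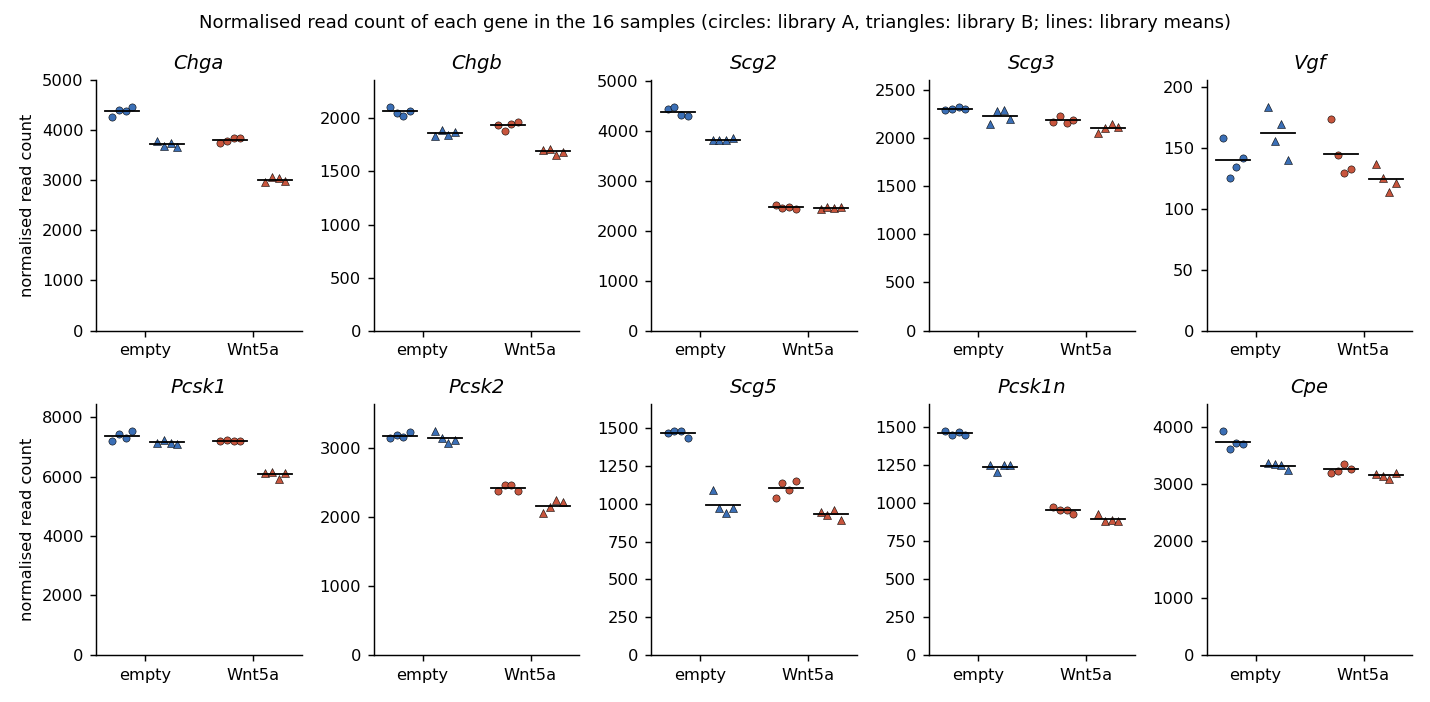
Normalised read count (vertical axes, from 0) of the 10 genes in the 8 empty (blue) and 8 Wnt5a (red) samples; circles are library A, triangles library B, and lines are library means. In Scg2, Pcsk2 and Pcsk1n the groups do not overlap, while in Chga, Chgb and Scg5 the spread between libraries A and B is of the size of the difference between groups.

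Scg2, which encodes secretogranin II, the precursor of the neuropeptide secretoneurin, showed the largest difference of the 10. Its normalised read count was 3813 at the lowest, 4083 at the median and 4492 at the highest of the empty samples, and 2436, 2465 and 2527 in the Wnt5a samples. Every Wnt5a sample lay below every empty one, and the Wnt5a samples were the more uniform. The library means were 4109 ± 396 and 2468 ± 6.84 (SD, n = 2), so the fitted log2 difference was -0.73 (SE 0.09; limma adjusted p = 0.012). The difference was -0.83 between libraries A and -0.64 between libraries B. Scg2 lies on chromosome 1, where the 690 tested genes had a median difference of -0.17. In 210 of these 690 genes all 8 Wnt5a samples lay below all 8 empty samples. With the median of each chromosome subtracted, Scg2 stood at -0.56 (limma adjusted p = 0.035). Its call was lost without the filter on low values (limma adjusted p = 0.056) and without the mean-variance trend (limma adjusted p = 0.054).

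The other granin genes differed less, and none passed the test. Chga encodes chromogranin A, the marker named in the cell type label. It ran from 3666 through a median of 4017 to 4465 in the empty samples and from 2955 through 3403 to 3841 in the Wnt5a samples, so the groups overlapped. Its library means were 4043 ± 462 and 3403 ± 561 (SD, n = 2), so the fitted log2 difference was -0.25 (SE 0.13; limma adjusted p = 0.428). Without Wnt5a library B the difference shrank to -0.08, and without Wnt5a library A it was -0.42. Chgb, which encodes chromogranin B, stood at 1964 ± 145 and 1813 ± 174 (SD, n = 2), so the fitted log2 difference was -0.12 (limma adjusted p = 0.653). For Chgb it ranged from -0.21 without Wnt5a library A to -0.0187 without Wnt5a library B. Scg3 encodes secretogranin III, which binds chromogranin A at the granule membrane; it was the steadiest of the group, at 2265 ± 54.9 and 2144 ± 57.5 (SD, n = 2), so the fitted log2 difference was -0.08 (limma adjusted p = 0.689). Vgf, whose product is a growth factor-inducible peptide precursor, was low in both groups, at 151 ± 16.02 and 135 ± 14.6 (SD, n = 2). Its difference was 0.05 between libraries A and -0.38 between libraries B (fitted -0.16; limma adjusted p = 0.639). Vgf rested on 506 to 637 reads per library, where counting alone gives an error of up to 4.45%; the other 9 genes had at least 3831 reads in every library, for which that error was at most 1.62%.

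Of the convertases, Pcsk2 passed the test and Pcsk1 did not. Pcsk2 fell: its lowest, median and highest empty samples were 3079, 3161 and 3254, and those of Wnt5a were 2062, 2314 and 2470, with no overlap. The library means were 3170 ± 25.8 and 2297 ± 178 (SD, n = 2), so the fitted log2 difference was -0.47 (SE 0.08; limma adjusted p = 0.047). Pcsk1 had the highest normalised read count of the 10 genes. It ran from 7088 through 7202 to 7534 in empty samples and from 5930 through 6661 to 7226 in Wnt5a samples. Wnt5a library A overlapped the empty samples, and Wnt5a library B lay below them. The difference was -0.03 between libraries A and -0.23 between libraries B, and the fitted value was -0.13 (SE 0.10; limma adjusted p = 0.624). Without Wnt5a library B the difference of Pcsk1 was -0.0113, and without Wnt5a library A it was -0.26. The difference between the responses of Pcsk1 and Pcsk2 was not tested. Exons of Pcsk2 overlap the antisense genes Pcsk2os1 and Pcsk2os2 in the annotation, and whether the counts used strand is not given in the sources used here. Pcsk2os1 stood at 70.5 ± 10.8 and 61.2 ± 3.57 (SD, n = 2), far under Pcsk2. Exons of Pcsk1n overlap Eras on the other strand, which had almost no reads.

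Of the convertase partners, Pcsk1n passed the test and Scg5 did not. Pcsk1n fell, from empty samples of 1208, 1351 and 1476 (lowest, median and highest) to Wnt5a samples of 885, 928 and 975, again with no overlap. Its library means were 1350.2 ± 156 and 925 ± 38.8 (SD, n = 2), so the fitted log2 difference was -0.54 (SE 0.10; limma adjusted p = 0.049). Scg5 ran from 941 through 1265 to 1482 in empty and from 893 through 999 to 1150 in Wnt5a samples. Here empty library A, at 1468, stood apart from the other 3 libraries, at 931 to 1104, and the fitted difference was -0.25 (SE 0.18; limma adjusted p = 0.589). Without empty library A the difference of Scg5 turned to 0.03, and without empty library B it was -0.53 and passed the test (limma adjusted p = 0.0061). Cpe stood at 3540 ± 297 and 3211 ± 78.9 (SD, n = 2), so the fitted log2 difference was -0.14 (SE 0.09; limma adjusted p = 0.522). Without empty library A the difference of Cpe was -0.05, and without empty library B it was -0.22.

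The calls of Pcsk2 and Pcsk1n lay close to the threshold. Without Wnt5a library A their limma adjusted p-values were 0.057 and 0.073, and without Wnt5a library B 0.235 and 0.166, with log2 differences between -0.58 and -0.39. Both were also lost without the filter, with a minimum value of 50, without the trend and after chromosome medians were subtracted, and Pcsk1n with a pseudocount of 0.1 (limma adjusted p up to 0.131). An exact two-sided permutation test over the 4 libraries gave p = 0.333 for each of Scg2, Pcsk2 and Pcsk1n, and that design can give no smaller p.

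**Figure D3:**
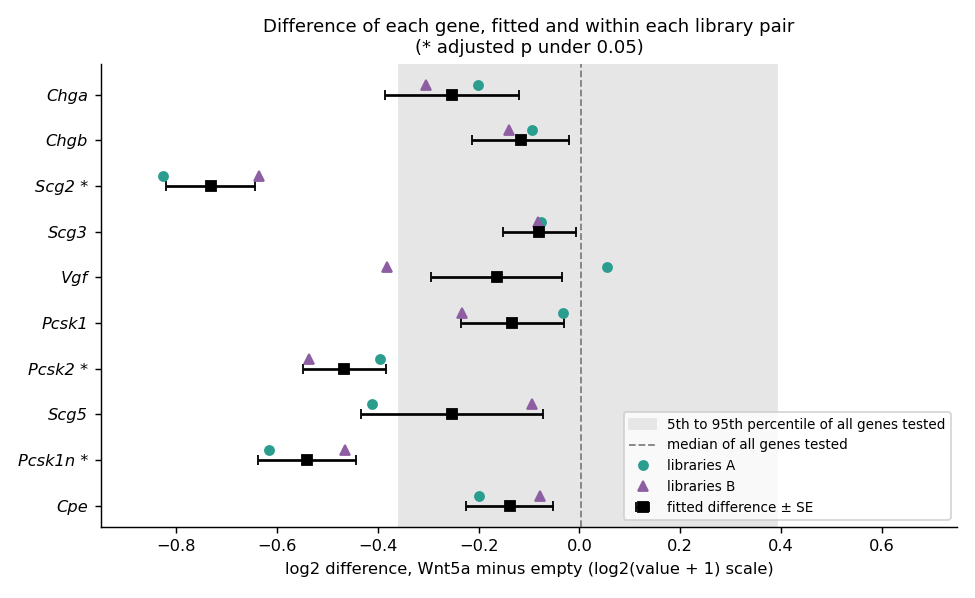
Log2 difference between Wnt5a and empty for each gene (horizontal axis, log2(value + 1) scale): squares are the fitted value with its SE, circles the difference between libraries A and triangles that between libraries B. Scg2, Pcsk2 and Pcsk1n lie outside the grey band that holds the 5th to 95th percentile of all genes tested, and only Vgf has library pairs on both sides of 0.

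Levels were compared between genes per kilobase of the longest annotated transcript. In empty cells the order of the mean normalised read count per kilobase was Chga (2147), Cpe (1672), Scg2 (1634), Pcsk1 (1439.7), Scg5 (1019), Scg3 (950.1), Chgb (717), Pcsk2 (671), Pcsk1n (616) and Vgf (53.2). Chga was above 99.1% of the tested genes with a length and Pcsk1n above 93.5%, while Vgf was above 32.3%. The library ranges of Cpe and Scg2 overlapped in empty cells, as did those of Scg5 and Scg3, so their order is not resolved. In Wnt5a cells the first and last places were the same, and Scg2, at 981 per kilobase, came after Pcsk1, at 1317. Scg2 made up 29.9% and 29.5% of the summed level per kilobase of Chga, Chgb, Scg2, Scg3 and Vgf in empty libraries A and B, and 21.0% and 23.8% in Wnt5a libraries A and B.

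Enzyme and partner were also set against each other per length. The ratio of Pcsk1 to its inhibitor gene Pcsk1n was 2.19 and 2.51 in empty libraries A and B, and 3.29 and 2.94 in Wnt5a libraries A and B, with both Wnt5a values above both empty values. The ratio of Pcsk1 to Pcsk2 was 2.17 and 2.12 in empty and 2.78 and 2.62 in Wnt5a libraries. The ratio of Pcsk2 to Scg5 was 0.556 and 0.811 in empty and 0.562 and 0.597 in Wnt5a libraries, where the groups overlapped. These ratios are descriptions, with no test. The 10 genes together held 0.366% and 0.333% of all reads in empty libraries A and B, and 0.309% and 0.273% in Wnt5a libraries A and B.

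**Figure D4:**
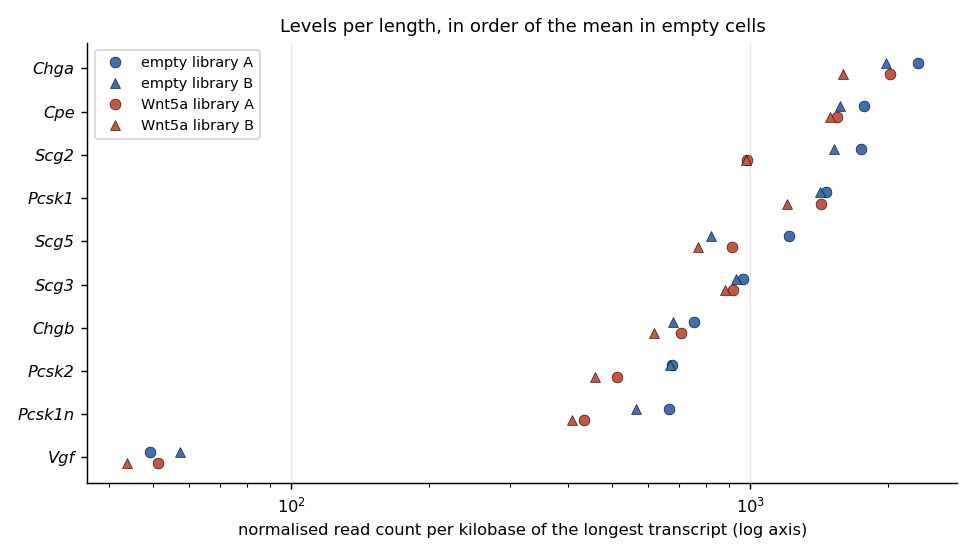
Normalised read count per kilobase of the longest transcript (log axis) for each gene in the 4 libraries, ordered by the mean in empty cells. Chga leads in both groups and Vgf is lowest, and Scg2 falls from 1634 in empty to 981 in Wnt5a cells, below Pcsk1.

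Other genes of the same pathway were taken from lists written from general knowledge, with earlier results of these data known. Of 73 such genes tested, 3 fell (Pam, Sv2b and Cartpt) and 0 rose past the threshold. Of all genes tested 0.672% were called as lower and 1.38% as higher. The 73 genes had a median difference of -0.03, and 44 of them (60.3%) were below 0, against 49.3% of all genes tested. Among 6 carboxypeptidases and peptide-end modifying enzymes tested, Pam, the peptide-amidating enzyme, fell. Its lowest, median and highest empty samples were 12813, 12991 and 13475, and its Wnt5a samples 8827, 9013 and 9249. The library means were 13095 ± 335 and 9025 ± 181 (SD, n = 2), so the fitted log2 difference was -0.54 (SE 0.08; limma adjusted p = 0.031). Pam also lies on chromosome 1, and its call was lost when chromosome medians were subtracted, when either Wnt5a library was left out, without the filter and without the trend. The other 5 members of that list lay between -0.41 and 0.09.

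Among 29 genes of the granule membrane and its biogenesis and transport, only Sv2b, which encodes a vesicle glycoprotein, passed: the empty mean was 464 ± 60.4 and the Wnt5a mean 300.1 ± 3.70 (SD, n = 2), which is -0.62 as log2 (limma adjusted p = 0.043). The list's median was 0.0002. Of 7 peptide precursors expressed enough to test, Cartpt, the precursor of the CART peptides, fell: the empty mean was 469 ± 78.1 and the Wnt5a mean 236 ± 38.6 (SD, n = 2), which is -0.99 as log2 (limma adjusted p = 0.030); the median of these precursors was -0.31. Calca, the calcitonin and CGRP precursor and the most abundant of them, is given here after its values were seen; it stood at 8248 ± 348 and 6657 ± 455 (SD, n = 2), so the fitted log2 difference was -0.31 (limma adjusted p = 0.154). Nmu, the neuromedin U precursor, also named after its values were seen, was low and variable, at 23.4 ± 18.7 and 4.10 ± 0.17 (SD, n = 2; log2 difference -2.01). With a Wnt5a mean under the filter value of 10, Nmu passed the filter only through the empty libraries, at 10.2 in A and 36.7 in B. Its difference was -1.10 between libraries A and -2.92 between libraries B, and limma did not call it in the main fit. Among the other limma fits with all libraries, Nmu was called after quantile normalization and with replicate number in the model. It was also called with the 16 samples counted separately, without or with replicate number. Sv2b was no longer called when either Wnt5a library was left out, without the filter, with a minimum value of 50 or without the trend. Cartpt kept its call when any 1 library was left out and lost it without the filter, with a minimum of 50 and without the trend.

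The 3 remaining lists held no called gene. The 5 other proprotein convertases tested had a median of -0.08, and the most abundant, Mbtps1 (site-1 protease), stood at 2076 ± 26.8 and 2005 ± 24.6 (SD, n = 2). Pcsk5 and Pcsk6, named after their values were seen, were too low for the filter and were not tested in the main fit. The fit without the filter included both, and it called 0 genes of the pathway lists. Library values of Pcsk5 were 0 (A) and 0.76 (B) for empty, against 12.9 (A) and 8.44 (B) for Wnt5a. Its lowest Wnt5a sample, 5.60, exceeded its highest empty sample, 2.03, on at most 55 reads per library. Pcsk5 lies on chromosome 19, where the median difference was 0.36. Pcsk6 had an empty mean of 9.14 and a Wnt5a mean of 6.92, with overlapping samples. The 14 subunits and accessory proteins of the V-ATPase, which acidifies the granule, had a median of -0.03 and ranged from -0.11 (Atp6v0b, the most abundant) to 0.06. The 12 transcription factors had a median of 0.0018 and ranged from -0.22 to 0.13. At an unadjusted p under 0.05 these lists held 0, 0 and 0 genes in limma, while 16.1% of all genes tested were under it, and edgeR called none of them. DESeq2 also called none of these genes, but in the other lists it added Calca, Nmu, Ptprn and Resp18 to Pam, Sv2b and Cartpt. DESeq2 called 4.35% of all genes tested, against 2.06% in limma. Ptprn and Resp18 also lie on chromosome 1, where the median difference was -0.17.

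**Figure D5:**
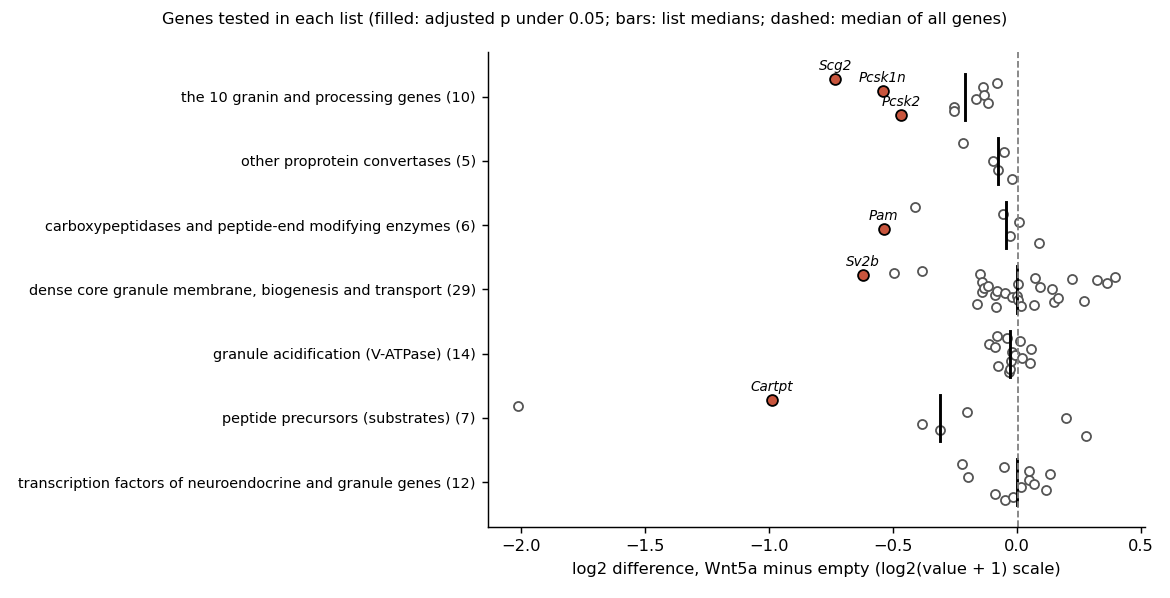
Log2 difference between Wnt5a and empty (horizontal axis) for every gene tested in each list, with the number tested in brackets; bars are list medians, the dashed line is the median of all genes, and filled points passed the test. The called genes are Scg2, Pcsk1n, Pcsk2, Pam, Sv2b and Cartpt, and the V-ATPase genes lie between -0.11 and 0.06.

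The cell type label was checked against markers. Of 10 neuroendocrine markers, 9 were expressed enough to test and limma called 0, with 2 of 9 at an unadjusted p under 0.05 (16.1% of all genes tested). DESeq2 called 2 (Calca and Resp18), and 4.35% of all genes tested. The fitted difference was below 0 for 8 of the 9 markers, with a median of -0.12, against 49.3% of all genes tested. For all 10 markers the summed normalised read count ranged from 61779 to 63335 in empty and from 57942 to 60409.5 in Wnt5a samples, without overlap; the part of this shift in the results above was not tested. Of 21 markers of fibroblasts, club cells, alveolar cells, leukocytes and endothelium found in the tables, 3 were expressed enough to test, and the sum over all 21 ranged from 380 to 672 in empty and from 284 to 312 in Wnt5a samples. Most of that was the fibroblast marker Dcn, at 469 ± 181 and 243 ± 3.35 (SD, n = 2; limma adjusted p = 0.131), which DESeq2 called as lower and whose part in the results above was not tested. The collagen genes Col1a1, Col1a2 and Col3a1 were at most 3.57 in any library. Without Dcn the sum was 39.8 to 80.3 in empty and 37.4 to 68.7 in Wnt5a samples. The most abundant markers of the other types were near 0, at library values of at most 14.9 for Ager, 12.5 for Cd68 and Sftpc, 4.14 for Pecam1 and 0.25 for Scgb1a1.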

How the data were processed

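The deposited tables, 1 for each of 16 samples, give the authors' normalised read counts per gene, a signal whose values are counts divided by a size factor. Per the labels' protocols, 500 ng of RNA entered each library, which was prepared with the NEBNext Ultra kit after capture on oligo-dT. TopHat, Bowtie, HTSeq and DESeq2 are named, without versions, in the submitters' processing notes; the genome build and annotation are not given in the sources used here. Every value was a whole multiple of its sample's step (100%, tolerance 0.001 reads), and division by that step gave back the reads.

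Samples 1 to 4 and 5 to 8 of each group were averaged into libraries A and B, so n = 2 per group. Genes with a mean value of at least 10 (12357) were tested on log2(value + 1) with limma 3.58.1 (lmFit, eBayes with trend) in R 4.3.3, with Benjamini-Hochberg adjustment over all of them and a threshold of 0.05. Fold changes on this scale understate those of low genes. The deposited count-like values keep the authors' scaling. edgeR 4.0.16 and DESeq2 1.42.0 on recovered reads were alternatives, beside other pseudocounts, filters, scalings, chromosome centring, the 16 samples counted separately, replicate number and single libraries left out. The fit was checked on simulated data.

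The 10 genes and all lists were chosen with earlier results of these data known. All 10 genes are described; from each list the called genes are named, or the most abundant where none was called, and others are said to be chosen after their values were seen or are those DESeq2 added. For 1 list without a called gene, the named item is not reported here. Promoter windows came from RefSeq (GRCm38.p6), transcript lengths and overlaps from GENCODE M21; 17623 of 17655 symbols matched the RefSeq gene table. Protein sequences were not analysed here.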

Additional observations from a re-analysis of the deposited data

How the results depend on the processing

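All 10 genes stayed below 0 in each of 13 alternatives that kept all libraries. The sign was fixed in advance where only the p-value can change: other filters, no trend and the replicate block. Scg2 passed the threshold in 11 of the 13, Pcsk2 in 9 and Pcsk1n in 8. These tallies include the fits that count the 16 samples separately, and the alternatives are not independent of each other. Of the 10 genes, 3 were called, against 2 with a pseudocount of 0.1, 1 with a minimum value of 50, 1 with chromosome medians subtracted, and 0 without the filter or without the trend. All genes called numbered 254, against 102 with a minimum of 50, 146 without the filter, 158 without the trend and 538 with DESeq2. The other pathway genes called numbered 3, against 1, 0, 0 and 7 in the same order, and 2 with chromosome medians subtracted. With the 16 samples counted separately, which treats repeats of 1 library as replicates, the counts were 8, 4377 and 25.

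The labels give the samples of both groups the same numbers, and state nothing else that samples of the same number share. With the replicate block, 4 of the 10 genes were called (Chga added, limma adjusted p = 0.013), 2095 of all genes and 14 pathway genes; for the 16 samples with the replicate block the counts were 9, 6012 and 40. Libraries with the same letter deviated together (Pearson 0.44, Spearman 0.53 across 12357 genes, which are not independent replicates; 2 pairs).

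Leaving out 1 library leaves a lone sample assumed to vary like the other group. The 10 genes called then ranged from 1 to 4, all genes from 138 to 1098, pathway genes from 1 to 5, and the median of the 10 from -0.325 to -0.0991. The 1 reversal was Scg5, at 0.0276 without empty library A; without empty library B it was -0.534 and passed the test. The cause was not tested. Lengths of the longest protein-coding transcript, chosen after seeing the data, equalled those of the longest transcript for all 10 genes. This alternative could change no rank, so it does not test the order per kilobase. Depth limits Vgf most.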

Other observations

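Libraries A and B of a group also differed in these genes. In empty cells 9 of the 10 genes were lower in library B than in library A (median log2 difference -0.16), and in Wnt5a cells 10 of 10 (median -0.18), while the median over all genes was -9.6e-05 and -0.0023. The 9 genes lower in B in both groups compare with 4447 of the 12357 genes tested. Scg5 showed the widest gap in empty cells, at -0.56, and Chga the widest in Wnt5a cells, at -0.34. Scg3 differed little between libraries, at -0.05 in both groups. Vgf was higher in B in empty cells (0.22) and lower in B in Wnt5a cells (-0.22).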
